A study of Mus musculus with 6 samples.

Results

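The glucocorticoid receptor, its relative the mineralocorticoid receptor and 8 genes that glucocorticoids induce were followed in brain tissue with and without Pla2g2e, a secreted phospholipase A2. These 10 genes (Nr3c1, Nr3c2, Fkbp5, Sgk1, Tsc22d3, Zbtb16, Pdk4, Plin4, Mt1 and Mt2) were taken by name from the array annotation, with every probe of each, which gave 10 of 29608 gene names and 12 of 39429 probes. The rule used no measured value, but the members were chosen with earlier results of these data known. The study compared 3 wild-type and 3 Pla2g2e-/- brain samples of male C57BL/6N mice, called wild-type 1 to 3 and knockout 1 to 3 below. Titles and descriptions call all 6 sham-operated, while the treatment text given for every one describes occlusion of the middle cerebral artery for 60 min. The labels give neither the age of the mice, the time of day, the brain region nor the part of Pla2g2e that was deleted, and they leave open if each sample is a separate animal. P-values therefore measure only how these 6 samples spread, part of which may be technical. Each sample was labelled with Cy3 and read on its own 1-colour Agilent array.

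Glucocorticoids are adrenal steroids released under stress and in a daily rhythm. In the brain they bind a high-affinity receptor encoded by Nr3c2 and a lower-affinity one encoded by Nr3c1, which then move to the nucleus and bind glucocorticoid response elements, palindromes with a pair of half-sites. Their direct targets include Fkbp5, a co-chaperone that lowers the affinity of the receptor and so closes a feedback loop, Sgk1, a kinase that regulates ion channels and transporters, and Tsc22d3, which encodes the anti-inflammatory protein GILZ. Zbtb16 encodes a zinc finger transcription factor, Pdk4 a kinase that restrains entry of pyruvate into the citric acid cycle, and Plin4 a protein that coats lipid droplets. Mt1 and Mt2 encode metallothioneins, which bind zinc and copper and are induced by metals as well as by glucocorticoids.

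The promoter sequences show where such elements lie in front of the targets. RefSeq promoters of build GRCm38.p6 were matched by symbol for 8 of the 10 genes, with 15 start sites in all, and the 250 bases before each start were searched on both strands. The full palindrome, the half-site AGAACA followed after 3 bases by its reverse complement TGTTCT, was in 1 of these 15 windows, the fifth of 6 start sites of Sgk1, and in 3 of 32851 windows of all genes (0.00913%). The half-site alone, whose matches include those inside the palindrome, was in 4 of the 15 windows, of Sgk1 and Tsc22d3, and in 16.1% of all windows. The core of the metal response element (TGCACNC or TGCGCNC) was in 3 of the 15, 1 each of Nr3c2, Mt1 and Mt2, and in 21.4% of all windows. Mt2 held 3 such cores, and 1.26% of all windows held 3 or more. The windows that hold these letters at Sgk1, Tsc22d3 and the metallothioneins follow, with half-sites and metal response cores in capitals. They lie at chr10:21993640-21993889 (plus strand) for Sgk1, chrX:140600523-140600772 (minus strand) for Tsc22d3, chr8:94178839-94179088 (plus strand) for Mt1 and chr8:94172368-94172617 (plus strand) for Mt2.
Sgk1, the fifth start site: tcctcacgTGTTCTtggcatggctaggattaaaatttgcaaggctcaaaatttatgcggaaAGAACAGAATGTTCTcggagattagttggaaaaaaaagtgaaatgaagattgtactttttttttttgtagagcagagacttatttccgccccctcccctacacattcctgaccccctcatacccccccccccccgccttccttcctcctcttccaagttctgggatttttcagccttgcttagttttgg
Tsc22d3, the second start site: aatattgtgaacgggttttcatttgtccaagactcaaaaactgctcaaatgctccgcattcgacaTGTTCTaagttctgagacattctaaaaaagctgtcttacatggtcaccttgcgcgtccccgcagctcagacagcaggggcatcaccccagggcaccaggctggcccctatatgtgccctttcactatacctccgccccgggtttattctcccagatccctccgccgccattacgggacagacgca
Mt1: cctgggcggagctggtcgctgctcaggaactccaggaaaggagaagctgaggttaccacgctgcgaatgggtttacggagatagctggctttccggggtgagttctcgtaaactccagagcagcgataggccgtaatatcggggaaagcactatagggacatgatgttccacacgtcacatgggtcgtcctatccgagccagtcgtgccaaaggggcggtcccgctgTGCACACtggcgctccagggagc
Mt2: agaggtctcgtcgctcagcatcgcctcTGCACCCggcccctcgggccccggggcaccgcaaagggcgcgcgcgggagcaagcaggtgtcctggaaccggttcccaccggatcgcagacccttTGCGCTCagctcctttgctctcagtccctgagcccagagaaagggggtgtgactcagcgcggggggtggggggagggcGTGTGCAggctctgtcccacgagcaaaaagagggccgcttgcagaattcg
The palindrome of Sgk1 begins 189 bases before its start site, and the half-site of Tsc22d3 185 bases before its own. The core of Mt1 begins 23 bases before the start, and those of Mt2 begin 223, 128 and 50 bases before. A match of letters is a description and not a measured binding site. The start site used was not measured.

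Between 82.0% and 85.3% of the 43020 non-control spots of an array were well above background, and 0 were saturated. Across genes, arrays of 1 genotype correlated at 0.993 to 0.998, and arrays of different genotype at 0.992 to 0.996. Wild-type 1, 2 and 3 and knockout 1 shared a slide, and knockout 2 and 3 lay on a second slide. The deleted gene had 2 dim probes, which differed by 0.33 and -0.59 (log2, adjusted p = 0.494 and 0.437, limma with Benjamini-Hochberg adjustment), and since the deleted part is not given they check nothing about the genotype labels. All 7 neuron, 8 astrocyte, 6 oligodendrocyte and 5 microglia markers listed for this report were well above background on all 6 arrays. Some tissue markers moved with single arrays or with the genotype. All 7 striatum markers were higher on wild-type 3, whose summed signal was 1.78 times the wild-type mean, against 0.74 and 0.48 times on wild-type 1 and 2 and 0.52 to 0.59 times on the knockout arrays. Of the 6 oligodendrocyte markers 5 had lower means in knockout and 1, Mbp, a higher one, with a median difference of -0.33. All 7 markers of pericytes and smooth muscle and all 8 of meningeal fibroblasts had lower means in knockout, with median differences of -0.28 and -0.48. So had all 6 choroid plexus markers (median -0.58) and all 5 of red blood cells (-0.73), whose summed signal varied between arrays from 0.308 to 1.505 and from 0.165 to 2.42 times the wild-type mean. Their part in the results below was not tested. In bulk tissue, fewer cells of a type and less RNA per cell cannot be told apart.

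None of the 10 receptors and targets differed between genotypes at an adjusted p under 0.05 in limma (0 of 10), and of all 23865 genes tested 0 did (0%). At an unadjusted p under 0.05 there were also 0 of 10, where all genes gave 12.5%. The groups did not overlap in 1 of the 10, Zbtb16, against 19.9% of all genes in either direction and 7.53% in the higher direction. The 10 genes had a median difference of 0.07 between knockout and wild type (log2), with 6 higher and 4 lower. The median of all genes was -0.01, and 53.2% of them were lower. Counted by probe, the groups did not overlap in 1 of 12, against 19.4% of all probes. Without wild-type 1 the median of the 10 was 0.20. All 12 probes were well above background on all 6 arrays, so no member was lost to the filter on dim probes and no value is a bound. Values below, given in the order of samples 1, 2 and 3 of a genotype, are log2 signals relative to the 75th percentile of the array, so a value of 0 is the level of that percentile. Signals of different probes are not compared with each other, since brightness depends on the probe.

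**Figure D1:**
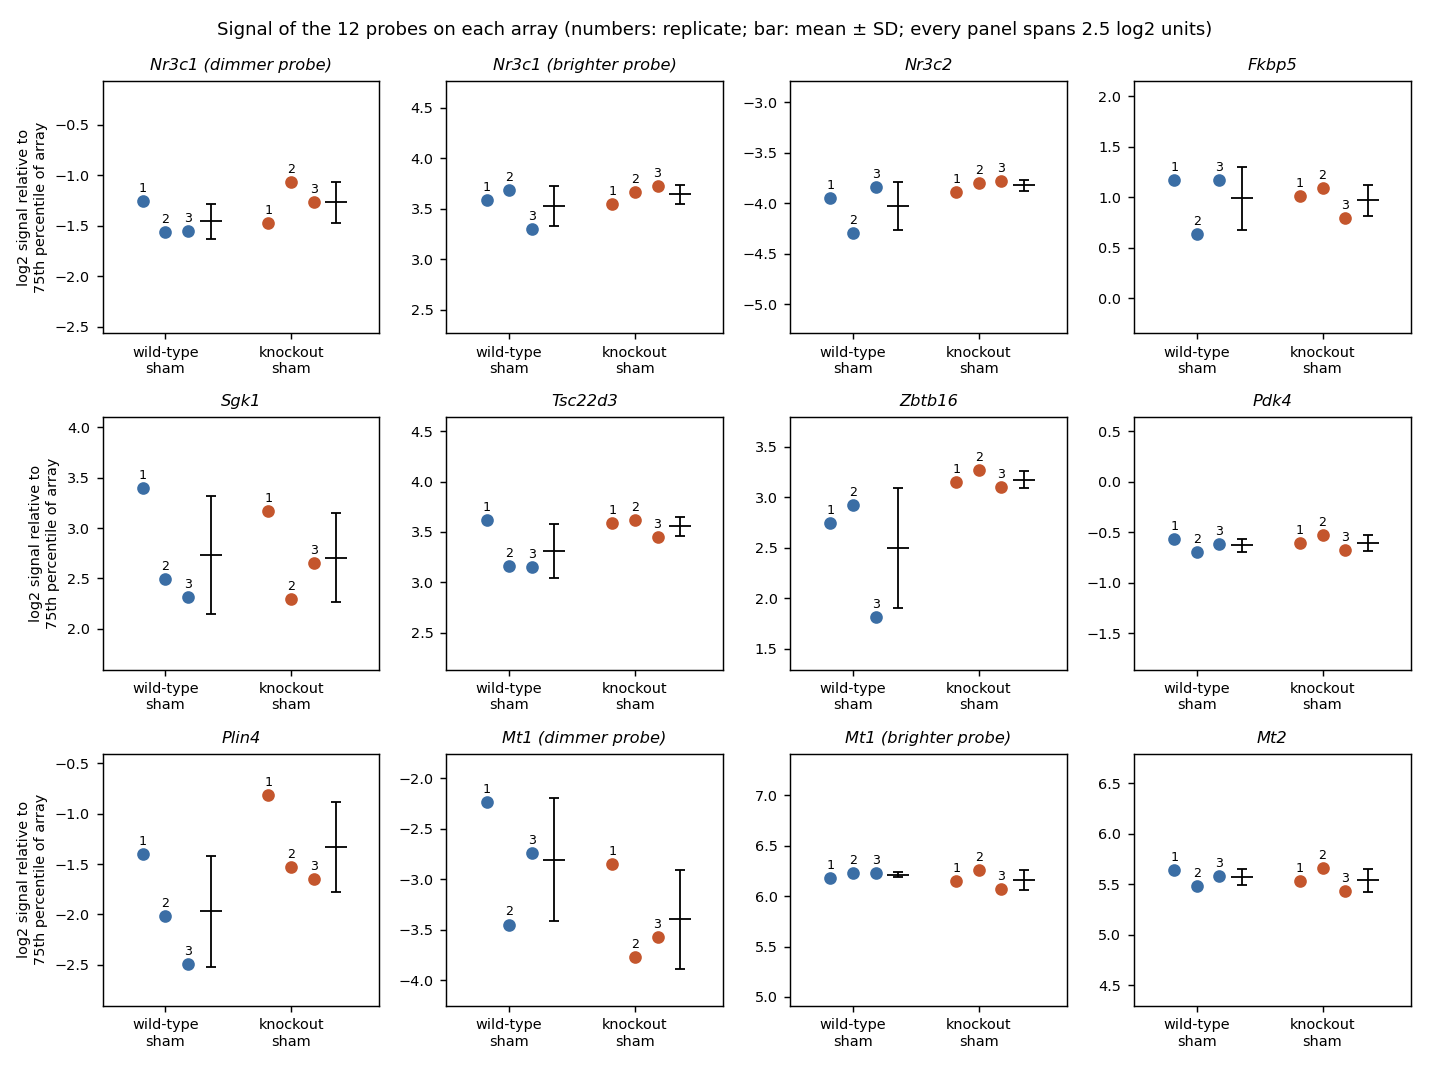
The log2 signal of the 12 probes, relative to the 75th percentile of each array, is plotted for 3 wild-type (blue) and 3 knockout (orange) arrays, with the replicate number above each point and the mean ± SD as a black bar. Zbtb16 is the only panel in which the 3 knockout points all lie on one side of the wild-type points, and wild-type 3 stands lowest there at 1.82.

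Neither receptor gene passed the test between genotypes. Nr3c1, on chromosome 18, had 2 probes. The brighter one read 3.59, 3.69 and 3.30 in wild type and 3.54, 3.66 and 3.73 in knockout. Wild-type 3 was lowest and the groups overlapped. The means were 3.53 ± 0.20 and 3.64 ± 0.09 (SD, n = 3 each), a difference of 0.12 with a 95% interval from -0.17 to 0.41 (adjusted p = 0.697 in limma). Without wild-type 3 the difference was 0.01. The dimmer probe of Nr3c1 differed by 0.19 (interval -0.15 to 0.53), and by -0.017 on the shared slide, where knockout 1 is the only knockout array. Nr3c2 (chr8:79766370-79766429, mm9) read -3.95, -4.30 and -3.84 in wild type and -3.89, -3.80 and -3.78 in knockout. Wild-type 2 was lowest. The knockout values lay close together, and knockout 1 stood below wild-type 3, so the groups overlapped. Its difference was 0.20 (interval -0.11 to 0.52, adjusted p = 0.541 in limma), and 0.07 without wild-type 2.

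Sgk1, the kinase whose promoter window holds the palindrome, varied more between arrays than between genotypes. Its probe (chr10:21719507-21719566, mm9) read 3.40, 2.49 and 2.31 in wild type and 3.17, 2.30 and 2.65 in knockout. Wild-type 1 and knockout 1 were high and the other 4 arrays low, so that each genotype held both levels. The highest array exceeded the lowest 2.14-fold, and the spread within groups (pooled SD 0.52) exceeded that of 94.997% of genes. The genotype means, 2.73 ± 0.58 and 2.71 ± 0.44 (SD, n = 3 each), differed by -0.03 with an interval from -0.89 to 0.83 (adjusted p = 0.981 in limma). That interval allows folds of knockout over wild type from 0.54 to 1.78. The sign turned without wild-type 1 (0.31), without knockout 2 (0.18) and without knockout 3 (0.0013). On the shared slide, where the only knockout array is knockout 1, one of the high arrays, the difference was 0.44. Oligodendrocytes also express Sgk1, and the summed signal of their 6 markers was 0.955, 1.27 and 0.771 times the wild-type mean in wild type (samples 1 to 3) and 0.970, 0.690 and 0.906 times in knockout. The part of these markers in the values of Sgk1 was not tested.

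Fkbp5 and Tsc22d3 had smaller ranges and did not follow Sgk1 on every array. Fkbp5 (chr17:28536060-28536119, mm9) read 1.17, 0.63 and 1.17 in wild type and 1.01, 1.09 and 0.80 in knockout. Wild-type 2 and knockout 3 were the low arrays, 1 in each genotype. The means, 0.99 ± 0.31 and 0.97 ± 0.15, differed by -0.02 (interval -0.45 to 0.40, adjusted p = 0.968 in limma), which allows folds from 0.73 to 1.32. Tsc22d3 (chrX:137074094-137074153, mm9) read 3.62, 3.16 and 3.15 in wild type and 3.59, 3.62 and 3.45 in knockout. Wild-type 2 and 3 were low, while wild-type 1 stood among the knockout arrays. Its means of 3.31 ± 0.27 and 3.55 ± 0.09 differed by 0.24 (interval -0.11 to 0.60, adjusted p = 0.518 in limma). It was 0.40 (adjusted p = 0.395 in limma) without wild-type 1, and over the other alternatives it ran down to 0.16.

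The groups of Zbtb16 did not overlap, but its difference did not pass the test. Its probe (chr9:48462419-48462478, mm9) read 2.75, 2.92 and 1.82 in wild type and 3.16, 3.27 and 3.10 in knockout. The knockout arrays lay close together, and wild-type 3 lay far below wild-type 1 and 2. The means of 2.496 ± 0.595 and 3.18 ± 0.09 (SD, n = 3 each) differed by 0.68, a ratio of 1.60, with an interval from -0.03 to 1.39. The adjusted p was 0.408 and the unadjusted p 0.0580 in limma. It was 0.34 (adjusted p = 0.388 in limma) without wild-type 3. On the shared slide knockout 1, the only knockout array there, was 0.66 above the wild-type mean. Wild-type 3 is the array on which the striatum markers were highest, with a median 1.13 above the wild-type mean there, -0.31 and -0.89 on wild-type 1 and 2, and -1.15 to -0.84 in knockout. The part of tissue composition in the values of Zbtb16 was not tested.

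Neither metabolic target passed the test. Pdk4 (chr6:5433441-5433500, mm9) read -0.57, -0.70 and -0.62 in wild type and -0.61, -0.53 and -0.68 in knockout, a range of 1.13-fold over all 6 arrays. Its difference of 0.02 had an interval from -0.15 to 0.20, so that folds beyond 0.90 or 1.15 lie outside it. Plin4 (chr17:56240055-56240114, mm9) read -1.40, -2.01 and -2.49 in wild type and -0.82, -1.53 and -1.64 in knockout. Knockout 1 was highest and wild-type 3 lowest, 3.19-fold apart, and wild-type 1 lay above knockout 2 and 3. The means of -1.97 ± 0.55 and -1.33 ± 0.45 differed by 0.64 (interval -0.19 to 1.47, adjusted p = 0.480 in limma). The difference was 0.38 without wild-type 3 and also without knockout 1, 0.92 without wild-type 1, and 1.15 on the shared slide, where it rests on knockout 1 alone, the highest array. Plin4 had a spread within groups (pooled SD 0.50) above that of 94.5% of genes, and Pdk4 (0.07) above that of 19.97%.

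By the brightest probe of each gene, the metallothioneins were the steadiest members beside Pdk4, while the dimmer probe of Mt1 varied widely. The brighter probe of Mt1 (chr8:96704165-96704224, mm9) read 6.18, 6.23 and 6.23 in wild type and 6.15, 6.26 and 6.07 in knockout. Mt2 (chr8:96697371-96697430, mm9) read 5.64, 5.49 and 5.58 in wild type and 5.53, 5.66 and 5.43 in knockout. In both genes knockout 2 was highest, knockout 3 lowest, and the groups overlapped. This order depends on the scaling. Before it, the signal of Mt1 ran from 143309 (wild-type 2) to 151955 (knockout 1). That of Mt2 ran from 85801 (wild-type 2) to 102606 (wild-type 1). Mt1 differed by -0.05 (interval -0.23 to 0.12) and Mt2 by -0.03 (interval -0.24 to 0.18), with adjusted p = 0.775 and 0.902 in limma. Centring arrays on their median, under which all genes had a median of 0.13, gave 0.09 and 0.11. That scaling adds the same shift to every gene, and both genes stayed below the median of all genes. The dimmer probe of Mt1 (chr8:96703844-96703903, mm9) read -2.23, -3.45 and -2.74 in wild type and -2.85, -3.78 and -3.58 in knockout. Its means of -2.81 ± 0.61 and -3.40 ± 0.49 differed by -0.59 (interval -1.50 to 0.32, adjusted p = 0.552 in limma). It was -0.91 without wild-type 2, -0.31 without wild-type 1 and -0.040 on the shared slide, where knockout 1 is the only knockout array, so its size rests on single arrays.

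**Figure D2:**
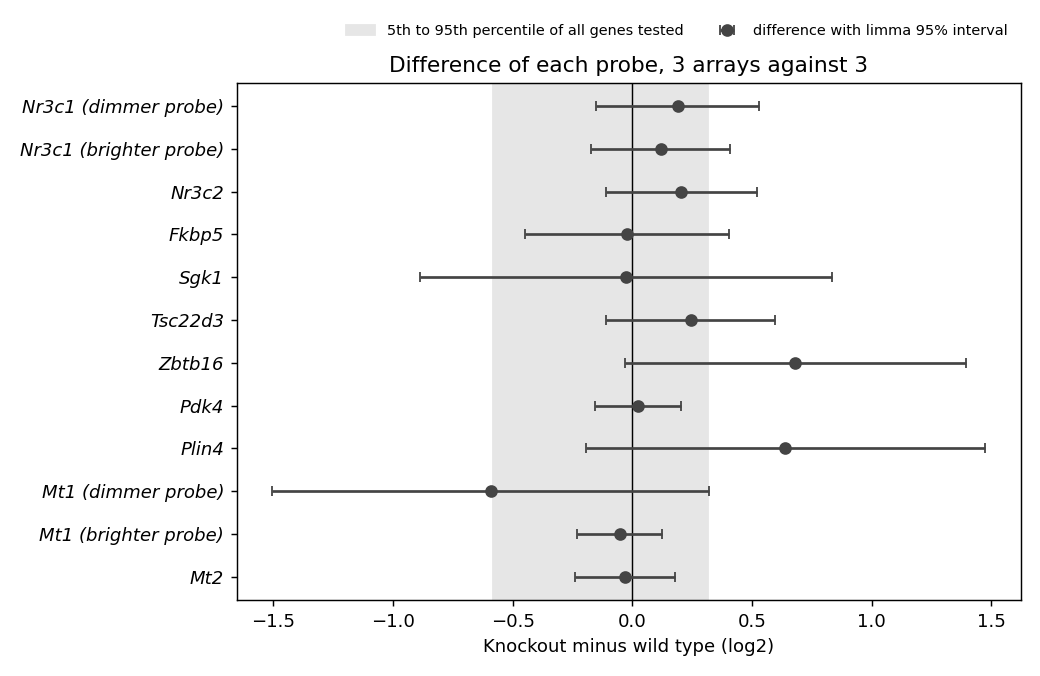
Each point is the knockout minus wild-type difference of a probe in log2 units, with its 95% interval from limma (3 arrays against 3), over a grey band from -0.58 to 0.31 from the 5th to the 95th percentile of all genes tested. Every interval includes 0, the widest being those of the dimmer probe of Mt1, Sgk1, Plin4 and Zbtb16.

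Across arrays the 10 genes did not move as a block. Each gene was centred on its mean over the 6 arrays. Wild-type 1 was high for Sgk1 (0.68), Plin4 (0.25), Fkbp5 (0.19) and Tsc22d3 (0.19), but not for Nr3c2 (-0.02) or Zbtb16 (-0.09). Wild-type 3 was low for Zbtb16 (-1.02), Plin4 (-0.84), Sgk1 (-0.41), Nr3c1 (-0.28) and Tsc22d3 (-0.28), while Fkbp5 stood at 0.19 there. Knockout 1 was high for Plin4 (0.83), Sgk1 (0.45) and Zbtb16 (0.32). The root mean square distance between centred profiles was smallest for Pdk4 and Mt2 (0.04) and for Mt1 and Mt2 (0.06). By the brightest probe these genes had narrow ranges, and the scaling of each array enters every profile. The SD was larger in wild type than in knockout for 7 of the 10 genes (70%), against 63.0% of all genes.

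**Figure D3:**
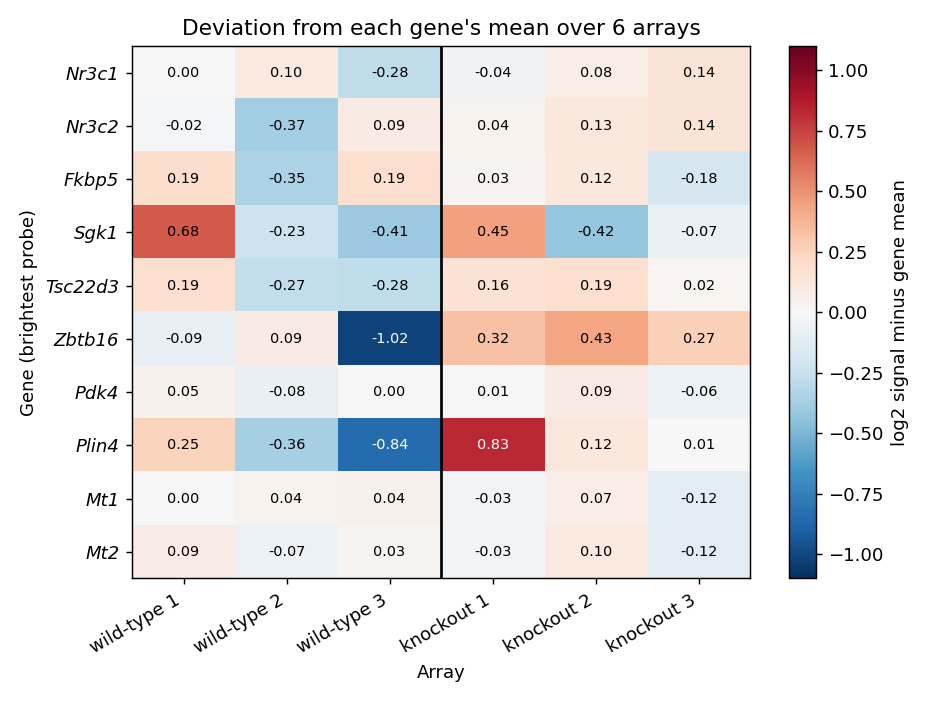
Rows are the 10 genes (brightest probe) and columns the 6 arrays, coloured and labelled by the log2 signal minus the mean of the gene. Zbtb16 and Plin4 on wild-type 3 are the lowest cells (-1.02 and -0.84), and Plin4 on knockout 1 (0.83) and Sgk1 on wild-type 1 (0.68) the highest.

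The genes closest in profile to single members were taken by the same distance among 22744 genes that were well above background on all 6 arrays. They share the arrays and their scaling with the members. For Fkbp5 they were 4930556H04Rik, Mid2 and Slc4a4 (distances of 0.03, 0.04 and 0.05, where Fkbp5 itself spread by 0.20). For Sgk1 they were the transcript ENSMUST00000224608.1, Potegl and Plekhf1 (0.12, 0.14 and 0.15, where Sgk1 spread by 0.42). Tsc22d3 was matched by Peg12, Frat1 and Entpd7 (0.05 each, spread 0.20). The nearest to Pdk4 were Plxna1, the transcript ENSMUST00000211819.1 and Aldh3a2 (0.01, 0.02 and 0.02, spread 0.06), and to Mt2 Grm7, Bax and Slc7a10 (0.02, 0.03 and 0.03, spread 0.08).

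Other genes that glucocorticoids induce were read as a list of 28, all of them tested. Of these 18 were higher and 10 lower in knockout, with a median of 0.09, and 0 passed the adjusted test. At an unadjusted p under 0.05, 3 were higher and 1 lower, where all genes gave 3.09% and 9.39%. Irs2, an adaptor of insulin signalling, read 2.89, 3.03 and 2.65 in wild type and 3.17, 3.41 and 3.37 in knockout, a difference of 0.46 (adjusted p = 0.296 in limma). Cables1, which binds cyclin-dependent kinases, differed by 0.25 (adjusted p = 0.304). Ddit4, an inhibitor of mTORC1 signalling, read 3.53, 3.14 and 3.74 in wild type and 3.08, 2.81 and 2.86 in knockout, a difference of -0.56 (adjusted p = 0.327). The groups did not overlap in any of these 3 genes. Over the list of 28 they did not overlap in 6 higher and 1 lower, where all genes gave 7.53% and 12.3%. Among the brightest of the list, Per1, a clock gene, differed by 0.23 (adjusted p = 0.569 in limma), also with groups that did not overlap. It read 3.89, 3.86 and 3.34 in wild type and 3.92, 3.92 and 3.94 in knockout. Wild-type 1 and 2 thus lay just below the knockout arrays, and wild-type 3 lay far below. Glul, glutamine synthetase, differed by 0.10 with knockout 3 left out because its spot was marked as an outlier. The list was highest on wild-type 1, with a median of 0.13 there, against -0.09 and -0.05 on the other wild-type arrays, and 0.12, 0.11 and -0.02 in knockout.

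The machinery around the receptor differed little. Of 18 chaperones and cofactors 12 were higher and 6 lower, with a median of 0.02 and differences from -0.17 to 0.19. Hsp90ab1 and Hspa8, chaperones that fold the receptor, differed by -0.07 and 0.03. Med1, a Mediator subunit that nuclear receptors contact, read 1.32, 1.38 and 1.44 in wild type and 1.22, 1.23 and 1.19 in knockout, a difference of -0.17 (adjusted p = 0.372 in limma). Of 12 genes of steroid supply and the stress axis 10 were tested (not Hsd11b2 and Serpina6). Of these 5 were higher and 5 lower, with a median of -0.01. At an unadjusted p under 0.05, 2 were higher and 1 lower, where all genes gave 3.09% and 9.39%. The lower one was Avp, vasopressin, named here after its values were seen, which read -1.52, -2.84 and -1.46 in wild type and -3.06, -3.67 and -2.75 in knockout, a difference of -1.22 (adjusted p = 0.363 in limma) with overlapping groups. Crh, the hypothalamic releasing hormone that is also made in cortex, read 0.55, 0.63 and 0.59 in wild type and 0.77, 0.96 and 0.85 in knockout, a difference of 0.27 ± 0.07 (SE, adjusted p = 0.301 in limma). Its receptor Crhr1 read 1.23, 1.14 and 1.18 in wild type and 1.47, 1.36 and 1.46 in knockout, a difference of 0.25 ± 0.07 (SE, adjusted p = 0.293). The groups did not overlap in either gene, and neither passed the test over all genes. Of the 10 genes tested, 2 higher and 1 lower had groups that did not overlap, where all genes gave 7.53% and 12.3%. The lower one was Crhr2, also named after its values were seen, with a difference of -0.74 (adjusted p = 0.534 in limma). It read -3.47, -3.64 and -1.91 in wild type and -3.81, -3.67 and -3.77 in knockout. Wild-type 3 stood far above every other array, and wild-type 2 lay just above knockout 2.

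Of 15 family relatives of the members, such as other pyruvate dehydrogenase kinases and perilipins, 6 were higher and 9 lower, with a median of -0.02, and the brightest, Tsc22d1 and Sgk3, differed by -0.0030 and 0.08. Of 7 further metal handling genes 4 were higher and 3 lower, with a median of 0.02. Mt3, the metallothionein most typical of brain, differed by -0.05 ± 0.12 (SE). Slc39a10, a zinc importer, read 1.05, 1.21 and 1.01 in wild type and 1.34, 1.23 and 1.34 in knockout, a difference of 0.22 (adjusted p = 0.374 in limma). Over these lists 0 genes passed the test over all genes.

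**Figure D4:**
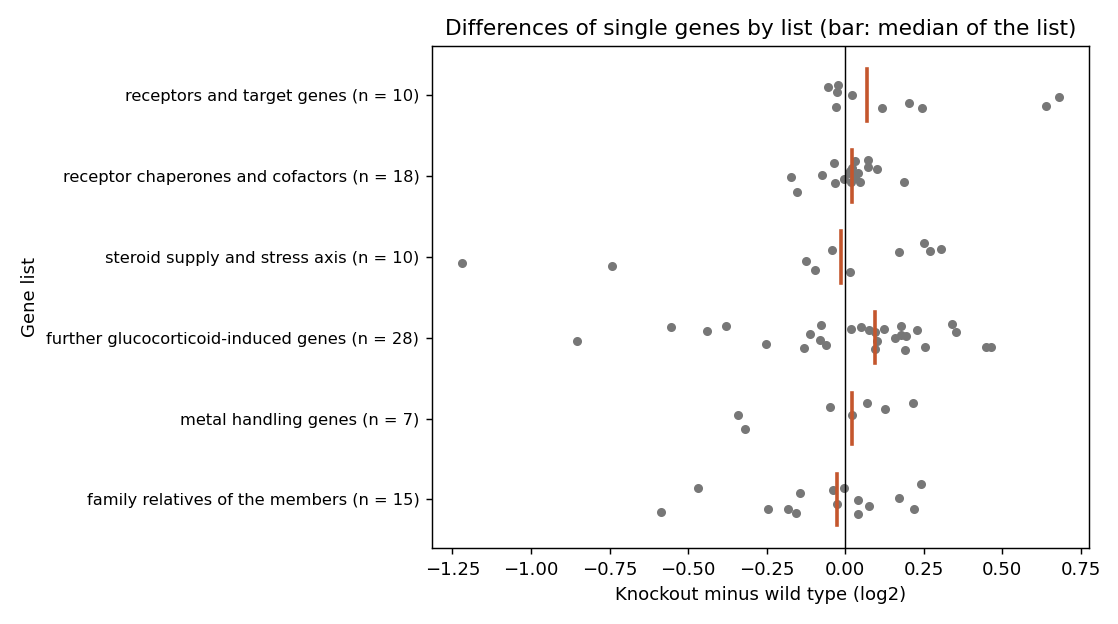
Each grey point is the knockout minus wild-type difference (log2) of a gene, by list, and the orange bar is the median of the list; points are spread vertically for visibility. The medians lie between -0.02 and 0.09, and the 2 rightmost points of the top list are Zbtb16 (0.68) and Plin4 (0.64).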

How the data were processed

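The authors deposited spot intensity values of 6 arrays of design 026655, extracted with Agilent Feature Extraction 12.1.1.1, per the file headers and the submitters' processing notes. The processed signal is a linear intensity, background-subtracted and detrended within each array, with 2368 to 3150 dim spots per array replaced by a surrogate value, per the file headers. Labelling started from 200 ng of total RNA, per the labels' protocols.

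Groups come from the sample titles. The 1377 control spots and 68 to 530 outlier spots per array were left out. Outlier spots numbered 314 and 530 on knockout 2 and 3, the arrays of the second slide, and 68 to 98 on the other arrays. The log2 of the processed signal was averaged per probe, and the array's 75th percentile over probes was subtracted. Tested probes were well above background on all arrays of 1 genotype or both, with 2 or more values in each (31955 of 39429 probes), and the brightest tested probe stood for a gene, named as in the files. Knockout and wild type were compared with limma 3.58.1 (lmFit, eBayes) in R 4.3.3 with no covariate, two-sided, adjusted by Benjamini-Hochberg over 23865 genes. For the dimmer probes of Nr3c1 and Mt1 every probe was fitted on its own. Intervals are limma's at 95%. Exact tests of 3 against 3 cannot reach the threshold and were not used.

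All 12 probes matched RefSeq accessions of the same symbol. Probe coordinates are mm9, per the file headers, and no annotation of mm9 was used, so exons and untranslated regions under the probes are not given. Named genes are the members, the brightest 2 of each pathway list, and those of a list with unadjusted p under 0.05 and groups that do not overlap (at most 4), plus the 3 nearest profiles of 5 members. The members and lists were chosen with earlier results of these data known. Same-numbered samples correlated at -0.03, -0.14 and -0.11 in their deviations, so the numbers were not used as pairs. Alternatives covered background correction, scaling, filters, probe choice, slide, replicate number, the variance prior and leaving out each array.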

Additional observations from a re-analysis of the deposited data

How the results depend on the processing

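In all 18 alternatives 0 of the 10 genes and 0 of the 12 probes passed the adjusted test (smallest adjusted p = 0.287 over genes and 0.282 over probes in limma). At an unadjusted p under 0.05 the count among the 10 ran from 0 to 4, the 4 after median centring, where 4099 of 23865 genes passed. Over all genes the count past the threshold was between 0 and 767 when 1 array was left out, with 767 reached without knockout 1, where genotype and slide coincide. It was 0 in every other alternative. The median difference of the 10 genes was 0.21 after median centring (all genes, 0.13) and between 0.029 and 0.20 when 1 array was left out. The replicate block used numbers that showed no pairing over all genes (wild-type samples were closest to knockout 3, 3 and 2). With this block the median was 0.07 and 0 members passed (smallest adjusted p = 0.338 in limma). At an unadjusted p under 0.05 it gave 2 of the 10 members, and 2563 of 23865 genes.

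By the brightest probe, Nr3c1, Nr3c2, Tsc22d3, Zbtb16 and Plin4 kept a higher mean in knockout in all 18 alternatives, within 0.01 to 0.26, 0.07 to 0.36, 0.16 to 0.40, 0.34 to 0.89 and 0.38 to 1.15. Median centring, which shifts every gene up alike, put Fkbp5 at 0.12, Sgk1 at 0.12, Mt1 at 0.089 and Mt2 at 0.11, all below the median of all genes. Mt1 turned sign in no other alternative. Fkbp5, Sgk1, Pdk4 and Mt2 did, and the cause was not tested. Taking the mean of its tested probes, which brings in the dimmer probe, put Mt1 at -0.32, against -0.05 by the brightest probe. With the slide as a fixed block, and equally within the shared slide, where knockout 1 is the only knockout array, Fkbp5 was 0.022 and Sgk1 0.44. Leaving out 1 array gave -0.20 to 0.069 for Fkbp5 (0.07 without wild-type 3 also, 0.06 without knockout 3). For Sgk1 it gave -0.26 to 0.31 (0.31 without wild-type 1, 0.18 without knockout 2, 0.0013 without knockout 3). For Pdk4 it gave -0.016 to 0.061, and for Mt2 -0.090 to 0.024. With 3 arrays a genotype, precision is limited by their number.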
